A study of Mus musculus with 12 samples.

Results

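The immunoglobulin heavy variable segments (Ighv) are the gene pieces that encode the antigen-binding end of the antibody heavy chain. They were taken as every row of the expression table whose gene name begins with Ighv and a digit, with no expression filter, which gave 183 of 55414 genes. All 183 matched the GENCODE M21 annotation of build GRCm38 by gene identifier and lie on the minus strand of chromosome 12, between 113572927 and 116010093. They fall into 16 families by the number after Ighv. The annotation lists 113 as V genes, called functional here, and 70 as V pseudogenes.

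The table holds whole-lung RNA-seq of 12 mice, all challenged with LPS (50 µg), a component of bacterial cell walls that injures the lung, and all sampled on day 4. In 6 of them, IL-10 B-KO, Il10 was deleted in B cells by crossing IL-10 flox/flox mice with mb1-cre mice, and the other 6 were IL-10 B-WT. Both genotypes were on a C57BL/6J background, and neither an untreated group nor the age of the mice was part of the sources used here. Mb1-Cre has Cre inserted in Cd79a, a B cell receptor gene, which limits the knockout as a model. Whether the Cre allele was carried in 1 or 2 copies, and which of the Il10 flox and Cre alleles the IL-10 B-WT mice carried, is not given in the sources used here. The IL-10 B-KO lungs are called knockout and the IL-10 B-WT lungs control in what follows. Values are TPM, the relative transcript level in a library per length of transcript.

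A developing B cell joins 1 V segment to a D and a J segment by V(D)J recombination, and the joined V exon is then transcribed with a constant gene such as Ighm (IgM) or Igha (IgA). The RAG recombinase cuts at signals beside the segments, and the cell keeps the heavy chain it made. Plasma cells, the antibody-secreting end stage, transcribe their rearranged chain at very high levels. The table gives V segments only, without the D, the J or the junction, so the number of clones was not measured.

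Different segments led most of the 6 control lungs. Ighv1-26 was highest in replicate 1, Ighv1-72 in replicate 2, Ighv9-3 in replicate 3, Ighv1-39 in replicate 4, and Ighv1-55 in replicates 5 and 6. The V exons of the leaders other than Ighv1-72 are shown first, from the GENCODE M21 transcripts on build GRCm38, written 5′ to 3′ on the minus strand. Each V exon is 305 bases long, and the 294 bases after the 11 that end the leader peptide's code are given. They lie at chr12:114788372-114788665 (Ighv1-26), chr12:114140692-114140985 (Ighv9-3), chr12:114914599-114914892 (Ighv1-39) and chr12:115208095-115208388 (Ighv1-55). Capitals mark TGTGC, searched on the coding strand in the last 20 bases, which holds the conserved cysteine codon beside the end that meets the D segment.
Ighv1-26: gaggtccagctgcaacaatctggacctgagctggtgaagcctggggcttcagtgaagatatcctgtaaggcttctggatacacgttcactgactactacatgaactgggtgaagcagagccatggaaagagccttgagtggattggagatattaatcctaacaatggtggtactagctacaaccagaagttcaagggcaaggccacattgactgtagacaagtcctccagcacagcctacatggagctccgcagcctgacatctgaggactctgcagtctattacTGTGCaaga
Ighv9-3: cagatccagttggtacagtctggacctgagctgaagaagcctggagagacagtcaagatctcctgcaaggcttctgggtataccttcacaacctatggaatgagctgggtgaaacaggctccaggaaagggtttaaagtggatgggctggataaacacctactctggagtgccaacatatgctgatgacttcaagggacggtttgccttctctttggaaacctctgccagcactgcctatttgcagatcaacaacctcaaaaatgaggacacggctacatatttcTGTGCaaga
Ighv1-39: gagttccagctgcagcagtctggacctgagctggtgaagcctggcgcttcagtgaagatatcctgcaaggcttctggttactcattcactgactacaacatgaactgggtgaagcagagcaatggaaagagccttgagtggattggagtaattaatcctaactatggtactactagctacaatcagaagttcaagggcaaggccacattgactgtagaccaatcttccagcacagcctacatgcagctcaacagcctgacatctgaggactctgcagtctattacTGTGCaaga
Ighv1-55: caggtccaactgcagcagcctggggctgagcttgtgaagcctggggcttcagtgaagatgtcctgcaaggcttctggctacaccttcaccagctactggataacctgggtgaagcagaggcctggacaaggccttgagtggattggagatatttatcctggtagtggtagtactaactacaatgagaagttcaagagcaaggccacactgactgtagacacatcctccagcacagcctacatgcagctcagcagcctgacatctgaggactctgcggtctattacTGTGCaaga
The letters TGTGC were present in this window in 91 of the 113 functional segments (80.5%) and in 32 of the 70 pseudogenes (45.7%). The match is a description of the reference and not of the RNA in these lungs.

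The segments resemble each other closely, which bears on how far their TPM can be told apart. The median functional segment was 95.4% identical in its V exon to its nearest relative, and 31 of 113 were at least 97% identical to another member. The V exons of Ighv1-62-2 and Ighv1-71 are identical (100%). Ighv1-72, the one segment among the 10 highest of every control lung, is shown with its nearest relative Ighv1-62-3, both on the minus strand, at chr12:115757984-115758277 and chr12:115460999-115461292. Capitals here mark the bases that differ.
Ighv1-72: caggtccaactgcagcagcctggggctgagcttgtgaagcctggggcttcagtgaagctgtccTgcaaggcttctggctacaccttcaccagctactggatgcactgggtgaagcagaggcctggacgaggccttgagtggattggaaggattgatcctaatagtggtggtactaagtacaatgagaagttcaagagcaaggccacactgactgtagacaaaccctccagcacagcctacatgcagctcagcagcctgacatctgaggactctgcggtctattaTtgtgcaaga
Ighv1-62-3: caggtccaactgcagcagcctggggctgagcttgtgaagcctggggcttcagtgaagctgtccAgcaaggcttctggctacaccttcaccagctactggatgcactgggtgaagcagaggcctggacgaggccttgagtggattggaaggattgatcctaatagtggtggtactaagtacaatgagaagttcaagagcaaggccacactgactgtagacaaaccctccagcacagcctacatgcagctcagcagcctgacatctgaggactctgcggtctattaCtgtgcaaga
The V exons of the pair differ at 3 of 305 bases (99.0% identity), and 2 of the 3 are in the stretch shown. These are T64A and T285C, with the Ighv1-72 base first and positions counted from 1 at the 5′ end of that stretch. All 50-base stretches of the Ighv1-72 V exon recur in the V exons of other members (100% shared). Ighv1-72 had a mean of 846 ± 1831 TPM (SD, n = 6) in control lungs and Ighv1-62-3 had 0.793 ± 1.57 TPM (SD, n = 6). How the reads of the shared sequence were divided between the pair cannot be seen from the table, and both values are uncertain for that reason. The rearranged genes in these B cells can also carry mutations that the reference does not hold.

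Summed over all 183 members, Ighv RNA was present in every control lung and was near the bottom of the scale in most knockout lungs. The sums in control replicates 1 to 6 were 343.9, 36012, 4379, 3046, 1975 and 1163 TPM, with a median of 2511 TPM. In knockout replicates 1 to 6 they were 2.41, 56.2, 1.81, 3.21, 1.82 and 71.7 TPM, with a median of 2.81 TPM. The genotypes did not overlap, and the lowest control lung was 4.80 times the highest knockout lung. Replicate 2 stood far above the other control lungs and held 76.8% of the Ighv TPM of that genotype, whereas replicates 2 and 6 stood above the other knockout lungs. Against those other 4 knockout lungs, the lowest control lung was 107 times the highest. In bulk lung, fewer B lineage cells and less RNA per cell cannot be told apart. The sum took 0.0346% to 3.62% of all TPM in control lungs and 0.000182% to 0.00722% in knockout lungs.

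**Figure D1:**
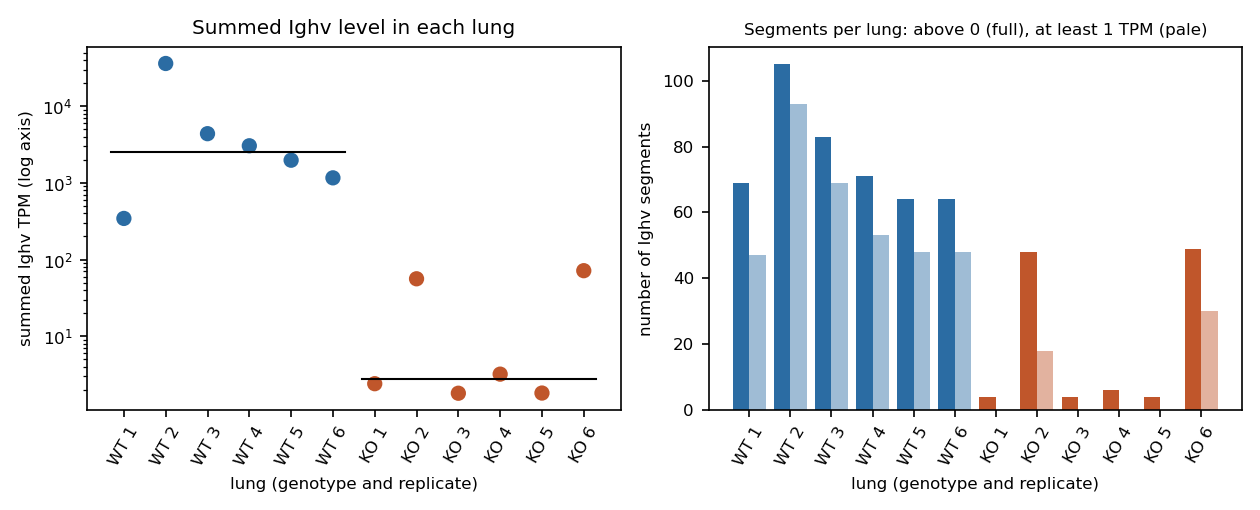
The left panel plots the summed Ighv TPM of each lung on a log axis, with a black line at the median of each genotype. The right panel gives the number of Ighv segments above 0 (full colour) and at or above 1 TPM (pale) in each lung. Control lungs (WT, blue) range from 343.9 to 36012 TPM and 64 to 105 segments, and knockout lungs (KO, orange) from 1.81 to 71.7 TPM and 4 to 49 segments.

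B cell markers differed along with these sums. The limma test and the rule for a call are given further below. Across all 15148 genes tested, 0.469% were called lower in knockout lungs and 12.5% had a nominal limma p up to 0.05. Cd79a, the signalling chain of the B cell receptor and the gene that carries the Cre, was at 15.3 to 259 TPM in control lungs. It was at 4.35 and 5.73 TPM in knockout replicates 2 and 6 and at 0 to 0.05 TPM in the other 4. The 2 knockout lungs with the higher Ighv sums were thus also the 2 with the higher Cd79a. Over the whole B cell list of 12 genes the summed level was 139 to 1893 TPM in control and 28.1 to 206 TPM in knockout lungs, and 1 gene, Cd79a, was called lower in knockout lungs (10 of 12 at a nominal limma p up to 0.05, all lower). Over 10 plasma cell markers the sums were 680 to 13153 TPM and 213 to 350 TPM, and of 9 tested, 3 were called lower, Jchain, which joins IgA and IgM into polymers, the IgA constant gene Igha, and Mzb1, a chaperone of the endoplasmic reticulum. In that list 7 of 9 had a nominal limma p up to 0.05, of which 1, Sdc1, had the opposite sign (log2 fold change 0.83, adjusted p = 0.351), and Xbp1, a transcription factor of secretory cells, had a log2 fold change of -0.04. None of these markers' part in the Ighv difference was tested. T cell, lymphoid stroma and lung epithelial lists had 0 of 6, 0 of 3 and 0 of 6 tested genes called by limma, with 0, 0 and 1 at a nominal p up to 0.05. Il10 itself was too low to check the deletion, at 0 to 0.88 TPM in control and 0 to 0.58 TPM in knockout lungs.

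Most of the functional repertoire was detected in control lungs. Of the 183 members, 117 were above 0 in at least 1 control lung, 104 of them functional and 13 pseudogenes, and the other 66 were listed at 0 in all 12 lungs (9 functional and 57 pseudogenes). A single lung held 64 to 105 segments above 0 in control mice. Only 37 members, all functional, were above 0 in every control lung, and 21 were seen in exactly 1. The 9 functional segments never seen came from families Ighv1 (3), Ighv2, Ighv5, Ighv6, Ighv7, Ighv13 and Ighv16, the last 2 of which were at 0 as whole families. Functional segments supplied at least 99.5% of the Ighv sum in each control lung. The pseudogene with the highest value, Ighv3-2, reached 2.29 TPM in control replicate 2 and 0.48 TPM in knockout replicate 2 and was at 0 in the other 10 lungs (exact permutation p = 1.0).

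Lungs of knockout mice fell into the same pair and the other 4. Replicates 2 and 6 had 48 and 49 segments above 0, and the other 4 had 4 to 6 each, 16 different segments in all, with no value over 0.84 TPM. Of the segments in replicates 2 and 6, 32 were shared, which is 66.7% and 65.3% of the 2 lists. Every one of the 69 members above 0 in a knockout lung was also above 0 in a control lung. The highest segments of knockout replicates 1 to 6 were Ighv8-6 (0.84 TPM), Ighv1-19 (4.17 TPM), Ighv1-23 (0.55 TPM), Ighv1-7 (0.72 TPM), Ighv1-9 (0.52 TPM) and Ighv1-72 (5.23 TPM). With sums of a few TPM, a leading segment in the 4 low lungs rests on values below 1 TPM, and the number of reads behind them is unknown. The 5 highest values in any knockout lung were all in replicate 6, in Ighv1-72, Ighv5-16 (4.97 TPM), Ighv1-64 (4.97 TPM), Ighv14-3 (4.78 TPM) and Ighv1-66 (4.42 TPM).

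**Figure D2:**
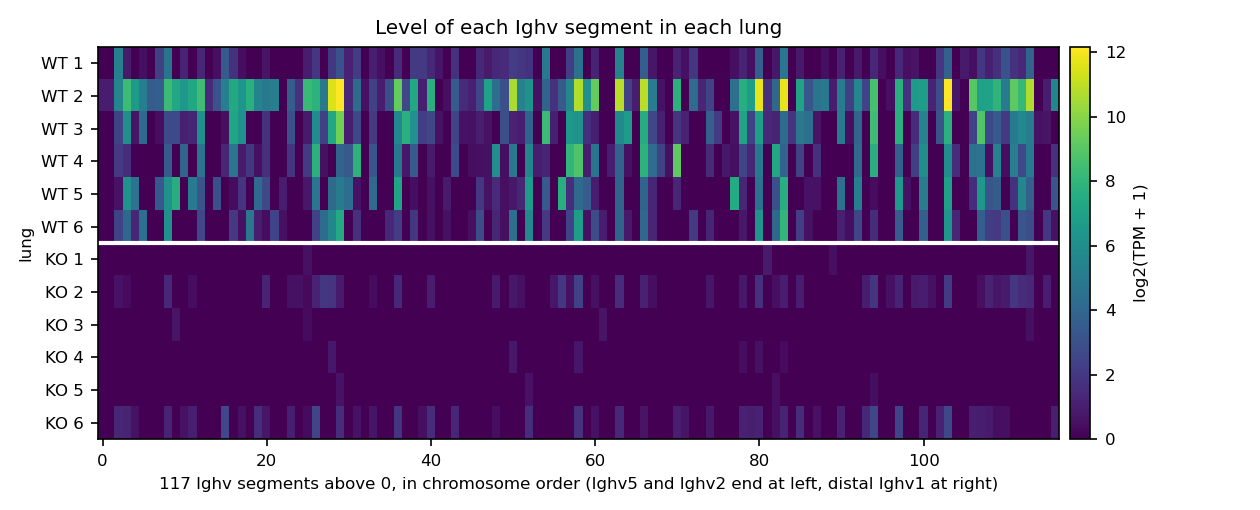
Each column is 1 of the 117 Ighv segments above 0 in any lung, in chromosome order, each row is a lung, and colour gives log2(TPM + 1). The 6 control rows, above the white line, differ in which columns are bright, and knockout replicates 2 and 6 show many dim columns where the other 4 show 4 to 6.

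For single segments, the question was which of them differed between genotypes beyond the spread between lungs. limma on log2(TPM + 1) was run across the 15148 genes at or above 1 TPM in at least 6 lungs, and a gene was called when its Benjamini-Hochberg adjusted p did not exceed 0.05 and its log2 fold change was 1 or more in size. Of all genes tested, 0.495% were called in either direction and 0.469% were called lower in the knockout lungs. Among Ighv members 29 were tested, and 10 of these were called, all lower. The other 154 members were below the filter, 88 of them above 0 in some lung. Each tested member reached 1 TPM in at least 5 control lungs and in at most 2 knockout lungs, so the filter favoured segments high in control lungs, and the count describes those that passed and not the 183. For 5 of the 29 no knockout lung reached 1 TPM, and 19 of the 29 met the filter through the 6 control lungs alone. As a description of the 29 only, with a direction that the filter largely set, the median log2 fold change was -4.48, against 0.099 over all genes tested, and all had a nominal p up to 0.05 (12.5% of all genes tested had such a p). With no filter the median over 117 members was -1.70.

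The called segments had log2 fold changes from -6.39 to -4.61, with standard errors from 0.69 to 1.27. Ighv1 supplied 8 of the 10, and Ighv2-5 and Ighv9-3 the others. The count rested on single lungs, as limma called 21 without control replicate 1, 3 without control replicate 5, and 6 without control replicate 6. It called 1 without knockout replicate 1, 3 without replicate 3, 6 without replicate 4, 1 without replicate 5 and 6 without replicate 6. The share of all genes called moved as well, from 0.495% to 3.99% without control replicate 1 (359 of 604 called genes higher in knockout lungs), to 0.152% and 0.231% without control replicates 5 and 6, and to 0.125%, 0.218%, 0.376%, 0.125% and 0.304% without knockout replicates 1, 3, 4, 5 and 6. With no filter 0 of 117 members and 5 of 31629 genes (0.0158%) were called lower by limma, although 116 of the 117 were lower and 54 had a nominal p up to 0.05 (8.18% of all genes in that run). With no filter and a pseudocount of 0.1, 20 of 117 were called lower, against 0.199% of all genes in that run. Complete separation of the genotypes, which needs no filter, held for 24 of the 117 members above 0, all with every knockout lung below every control lung, against 0.537% of all genes above 0.

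Ighv1-9 (chr12:114583569-114584002) had the lowest adjusted p. Its control values were 2.47, 74.0, 14.3, 45.6, 103 and 48.6 TPM, and its knockout values were 0 in replicates 1 to 4, 0.52 and 2.03 TPM. The genotypes did not overlap, and the segment fell by 4.61 ± 0.69 on the log2 scale (SE, adjusted p = 0.0125). Over 22 alternatives its adjusted p ranged from 0.000105 to 0.0696, and it passed in all 12 runs that left out 1 lung. Its nearest relative, Ighv1-63, is 90.2% identical and no 50-base stretch of it is shared with another member.

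Ighv1-72 (chr12:115757984-115758461) was the segment that recurred most in control lungs. Its level was 12.9, 4581, 215, 60.6, 122 and 86.0 TPM in control replicates 1 to 6 and 0, 3.14, 0, 0, 0 and 5.23 TPM in knockout replicates 1 to 6. It fell by 6.39 ± 1.08 on the log2 scale (SE, adjusted p = 0.0208, range over 22 alternatives 0.00411 to 0.0961). This fold change and those of Ighv9-3 and Ighv1-55 lay within a standard error of each other, and their order turned with the setting. Ighv9-3 had the larger change with array quality weights (-7.50 against -6.74 for Ighv1-72) and without control replicate 1, 4 or 5 or knockout replicate 1, 3, 4 or 5, and Ighv1-55 had it without control replicate 3 (-6.77 against -6.28). The call was lost without control replicate 5 (0.0608) and without knockout replicate 1 (0.0613), 3 (0.0561) or 5 (0.0606), all as adjusted p from limma.

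Ighv9-3 (chr12:114140692-114141122) had the largest standard error of the called segments. It stood at 7.44, 4555, 769.5, 13.4, 31.1 and 172 TPM in control replicates 1 to 6, and at 0, 0.85, 0, 0, 0.51 and 2.03 TPM in knockout lungs. The change was -6.34 ± 1.27 on the log2 scale (SE, adjusted p = 0.0459), and the call held without control replicate 1, 2 or 4 and was lost without any other lung, with limma adjusted p from 0.0502 (without knockout replicate 2) to 0.120 (without knockout replicate 1). It was also lost with quantile normalization, median centring or the replicate number as a block. Ighv1-55 (chr12:115208095-115208591) stood at 26.3, 3372, 18.5, 13.0, 204 and 253 TPM in control and at 0, 0.92, 0, 0.30, 0 and 1.34 TPM in knockout lungs, a change of -6.28 ± 1.09 (SE, adjusted p = 0.0223). That call was lost without control replicate 5 (0.0710) or 6 (0.0640) and without knockout replicate 1 (0.0613), 3 (0.0579) or 5 (0.0635). In both segments every knockout lung was below every control lung.

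The other called segments followed the same order of genotypes. Ighv1-19 changed by -6.08 (adjusted p = 0.0195), Ighv1-34 by -6.01 (0.0234), Ighv1-53 by -5.80 (0.0253), Ighv1-75 by -5.20 (0.0223), Ighv1-26 by -5.16 (0.0378) and Ighv2-5 by -4.82 (0.0195), all as limma log2 fold changes. Each of these 6 calls was lost without knockout replicate 1 or 5, at adjusted p from 0.0561 to 0.105, and each held without control replicate 1 or 2 and without knockout replicate 2. Ighv1-34, Ighv1-53, Ighv1-75 and Ighv1-26 were also lost without knockout replicate 3, and Ighv1-53, Ighv1-75, Ighv1-26 and Ighv2-5 without control replicate 5. Those of Ighv1-34, Ighv1-53 and Ighv1-26 were lost as well without control replicate 3 or knockout replicate 4 or 6, Ighv1-34 and Ighv1-26 without control replicate 4, and Ighv1-53 and Ighv1-26 without control replicate 6. In Ighv2-5 (chr12:113685482-113686045) the control lungs stood at 24.8, 325, 5.34, 9.90, 70.3 and 68.3 TPM and the knockout lungs at 0, 1.55, 0, 0, 0 and 1.23 TPM. The call of Ighv1-75 was also lost with the replicate number as a block, and that of Ighv1-26 with median centring. All 10 called segments reached 1 TPM in all 6 control lungs, so each passed the filter through control lungs alone. In Ighv1-75 no knockout lung reached 1 TPM, as its highest knockout value was 0.87 TPM. All 10 called segments were without overlap, as were 0.924% of all genes tested with the knockout lungs lower. Their exact permutation p, 0.00216, is the smallest that 6 against 6 lungs allow and follows from that separation, in segments that were chosen by their call on the same values.

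Several segments of similar size missed the adjusted threshold. The 5 with the lowest p were Ighv2-9-1 (log2 fold change -4.39, adjusted p = 0.0584), Ighv1-82 (-4.77, 0.0629), Ighv8-12 (-4.16, 0.0654), Ighv1-81 (-4.20, 0.0673) and Ighv1-18 (-4.31, 0.0707). Ighv2-9-1 was listed at 0 in all 6 knockout lungs and at 1.47, 349, 68.5, 24.1, 8.12 and 5.09 TPM in control lungs, so its fitted change depends on the pseudocount. Knockout replicates 1 and 3, where Cd79a was listed at 0, held 0.68 and 0.43 TPM of Ighv1-82, below the lowest control lung at 6.62 TPM. Ighv1-39 and Ighv1-64 had the largest standard errors among the named segments tested (1.38 and 1.44), with levels of 0 to 563 TPM and 0.34 to 399 TPM in control lungs, and adjusted p of 0.353 and 0.328.

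Within control lungs, use was concentrated on few segments, and most lungs had a leading segment of their own. The highest segment took 12.2%, 12.7%, 17.6%, 18.5%, 10.3% and 21.8% of the Ighv sum in replicates 1 to 6, and the 5 highest took 45.8% to 60.5%. The effective number of segments, the exponential of the Shannon entropy and thus the number of equally used segments that would be as diverse, was 27.8, 22.4, 23.5, 18.1, 23.9 and 17.6. These differed little while the sums spanned 105-fold. Replicate 2, with the highest sum, was within the range of the other lungs on each of these measures. Joining the segments of at least 97% identity gave effective numbers of 17.1 to 23.7. It raised the top share of replicate 1 from 12.2% to 18.5%, through Ighv2-2 and Ighv2-5. Both have Ighv2-4 as their nearest relative (98.0% and 97.7% identical).

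A set of 13 segments filled the 3 highest places of the 6 control lungs. Some were prominent in 1 lung alone. Ighv1-39 made up 18.5% of the Ighv TPM in replicate 4 and at most 0.605% elsewhere, and Ighv1-15 made up 9.84% in replicate 5 and at most 0.0263% elsewhere. Ighv5-12 took 9.66% in replicate 5 and at most 0.435% in the others. Ighv2-2 took 11.3% in replicate 1 and at most 0.370% in the others. Others recurred, such as Ighv1-72, which took 3.74%, 12.7%, 4.90%, 1.99%, 6.17% and 7.39% in replicates 1 to 6, and Ighv9-3, which took 12.6%, 17.6% and 14.8% in replicates 2, 3 and 6 and 0.440% to 2.16% in the rest.

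**Figure D3:**
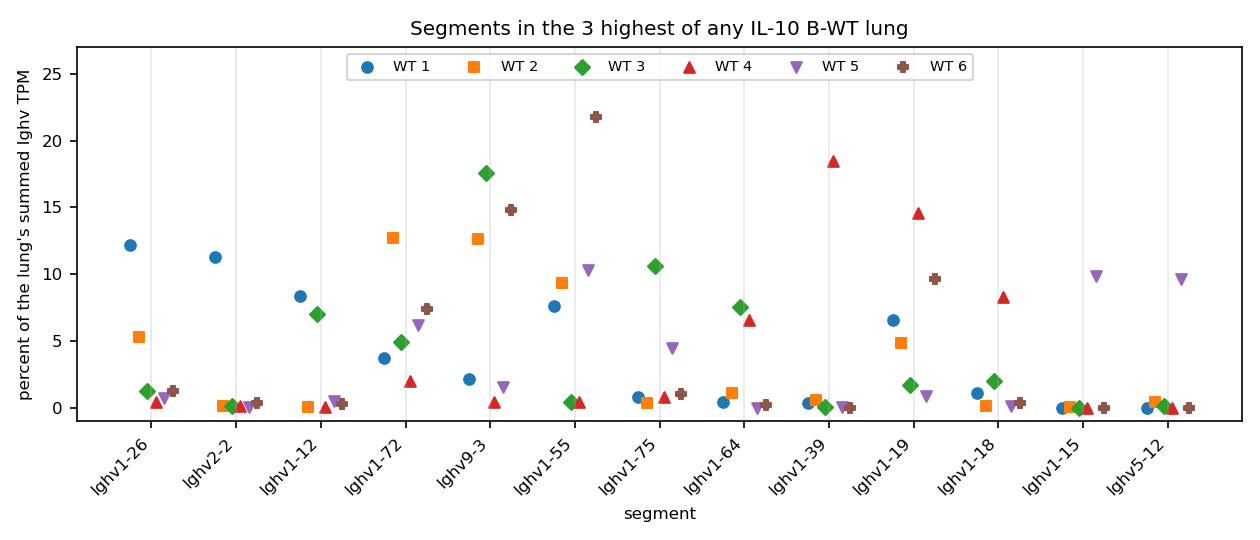
The share of each lung's summed Ighv TPM is plotted for the 13 segments in the 3 highest of any control lung, with 1 symbol per lung. Ighv1-39, Ighv2-2, Ighv1-15 and Ighv5-12 are high in 1 lung each, and Ighv1-72 is above 1.9% in all 6.

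The 10 highest segments also varied between lungs. Over the 6 lungs, 31 segments entered a top 10, of which 15 did so in exactly 1 lung, 9 in 2, 3 in 3, 3 in 4 and 1, Ighv1-72, in all 6. Ighv1-19, Ighv1-34 and Ighv1-55 were those in 4. Any 2 control lungs shared 1 to 7 of their 10, and the overlap of their segment shares was 17.5% to 59.7% (median 33.1%, 15 pairs). Replicate 2 shared 7 of 10 with each of replicates 1 and 6, and replicates 4 and 5 shared 1. Across the 117 segments the rank correlation between 2 lungs was 0.478 to 0.661 (Spearman), a description over segments that share the library, its depth and their sequence, and many of which are at 0.

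Use in knockout replicates 2 and 6 was spread more evenly at far lower levels. The highest segment took 7.42% and 7.30% of their Ighv TPM, and the effective numbers were 37.2 and 36.1, above all 6 control lungs. Over segments of at least 1 TPM the effective numbers were 16.8 and 25.1, against 16.9 to 23.9 in control lungs. Replicate 6 thus stayed above all 6 control lungs, and replicate 2 did not. That cut left 18 and 30 segments in knockout replicates 2 and 6 and 47 to 93 in control lungs. An effective number cannot exceed the number of segments counted, and replicate 2 was near that limit. The cut therefore cannot tell whether the difference rested on the faintest segments. With 4 to 6 segments above 0, the other 4 knockout lungs had effective numbers of 3.85 to 5.68, which say nothing on evenness. The light chain segments of the kappa locus (Igkv), 160 in the table, gave effective numbers of 36.3 and 42.4 in knockout replicates 2 and 6 and 17.6 to 28.7 in control lungs.

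**Figure D4:**
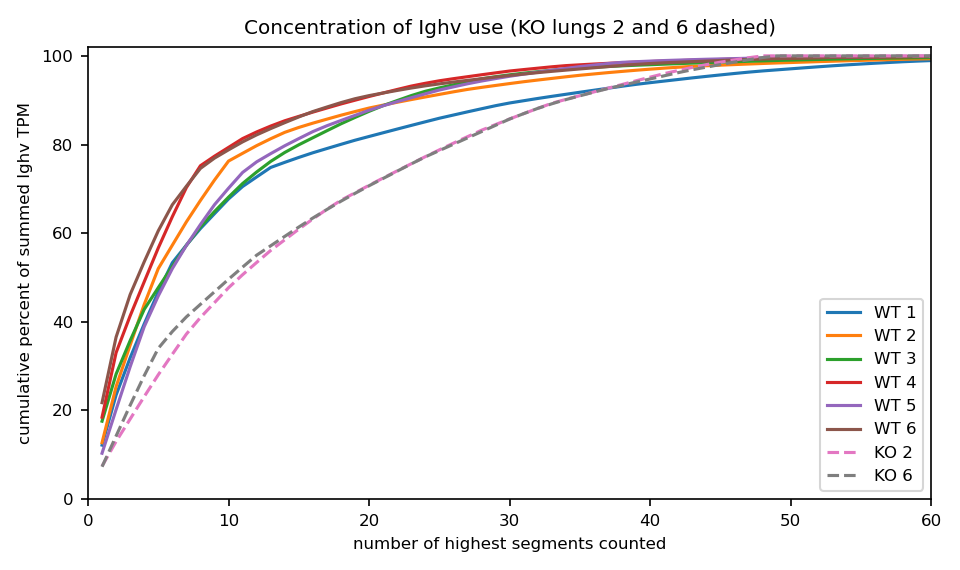
The cumulative percent of the summed Ighv TPM is plotted against the number of highest segments counted, for the 8 lungs with sums above 10 TPM. At 10 segments the control curves (solid) stand at 67.7% to 79.4%, and those of knockout replicates 2 and 6 (dashed) at 47.7% and 49.6%.

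By family, Ighv1 led in every control lung. Its 92 members took 52.0% to 76.8% of the Ighv TPM (63.3%, 67.6%, 58.4%, 76.8%, 52.0% and 62.8% in replicates 1 to 6), while Ighv1 makes up 46.9% of the functional segments. The next family was Ighv9 in 3 of the lungs and another in each of the rest. Ighv2 took 19.4% in replicate 1, Ighv9 took 20.8%, 25.9% and 20.4% in replicates 2, 3 and 6, Ighv14 took 14.8% in replicate 4, and Ighv5 took 15.8% in replicate 5 beside 12.7% of Ighv8. Ighv9 has 4 members and was as low as 0.479% in replicate 4. In knockout replicates 2 and 6, Ighv1 took 68.0% and 53.6%. The highest member by mean level in each other family with a tested member was Ighv2-5, Ighv3-6, Ighv5-4, Ighv8-12, Ighv9-3 and Ighv14-3, with control means of 83.9 ± 121, 140 ± 242, 79.1 ± 122, 43.8 ± 38.9, 925 ± 1802 and 90.2 ± 106 TPM (SD, n = 6).

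**Figure D5:**
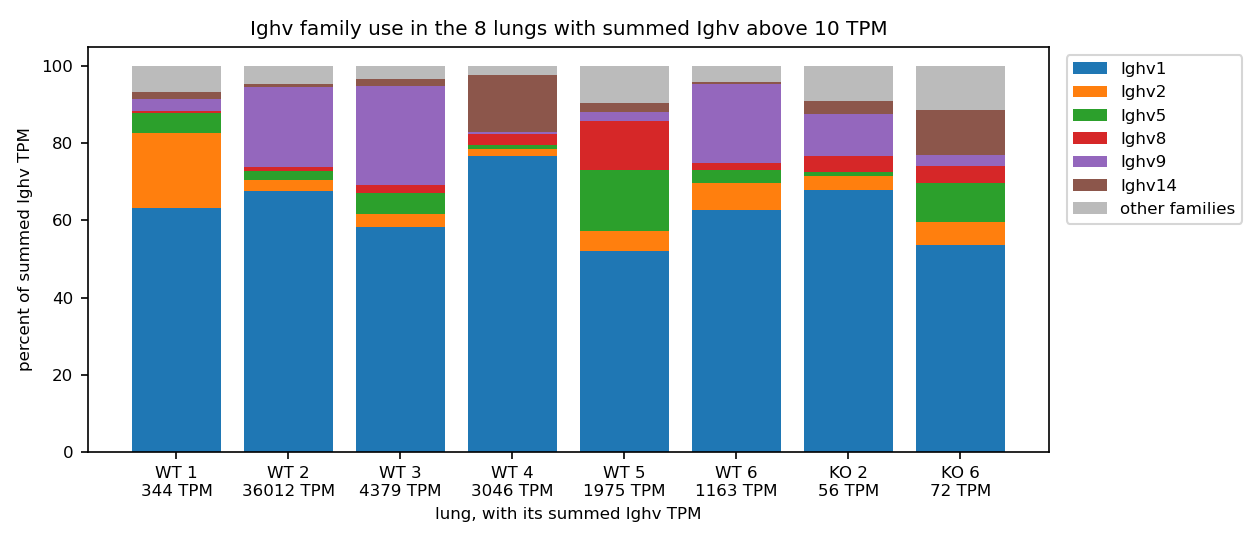
Stacked bars give the percent of each lung's summed Ighv TPM in the families that reached 10% in any of these lungs, for the 8 lungs with sums above 10 TPM. Ighv1 is the largest part in all 8, and among control lungs Ighv9 is the next in replicates 2, 3 and 6.

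Segments from the whole locus were used. When the functional segments were split by position into 3 parts of 37 or 38 segments, the part nearest the constant genes took 18.8% to 34.0% of the Ighv TPM in control lungs (median 29.6%), the middle part 21.5% to 57.2% (median 26.9%), and the distal part 24.0% to 45.8% (median 42.6%). Replicate 4 held the 57.2%, and its 2 highest segments, Ighv1-39 and Ighv1-19, are both in that part.

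The constant genes, which are transcribed with the joined V exon, gave a second measure of heavy chain RNA. The ratio of the Ighv to the heavy constant sum was 0.645, 1.29, 1.04, 0.942, 0.948 and 0.545 in control replicates 1 to 6. In knockout replicates it was 0.0409, 0.457, 0.143, 0.108, 0.109 and 0.716, so that replicate 6 was within the control range and the other 5 were below it. Without Igha in the constant sum, replicate 6 stood at 0.866 and the control lungs at 1.47 to 8.64. That step took 17.4% of the constant TPM from knockout replicate 6 and 37.1% to 89.1% from control lungs. V segments joined to Igha stayed in the Ighv sum, so these ratios do not compare the genotypes on equal terms. Ighm made up 50.8% to 97.3% of the constant TPM in knockout and 1.88% to 24.9% in control lungs, where Igha made up 37.1% to 89.1%. In knockout replicates 1, 3, 4 and 5, Ighm stood at 54.6, 12.3, 28.1 and 15.1 TPM beside Ighv sums of 1.81 to 3.21 TPM. Igha, Ighg2b and Ighg2c, of the 6 constant genes tested, were called lower in knockout lungs, as were 0.469% of all genes tested. Their log2 fold changes were -9.21, -7.26 and -6.76 (limma adjusted p = 0.000397, 0.0115 and 0.0124). The Igkv sum was 1.28 to 2.46 times the Ighv sum in control and 0.667 to 2.92 times in knockout lungs.

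Genes of V(D)J recombination and of heavy chain transcription did not pass the test. Among the 23 listed, 19 were tested and 0 were called by limma, against 0.495% of all genes tested. In knockout lungs 10 were lower and 9 higher, with a median log2 fold change of -0.14 against 0.099 over all genes tested. A nominal limma p up to 0.05 was found for 7 of the 19, against 12.5% of all genes tested. Of these 7, Spi1 alone was higher in knockout lungs (log2 fold change 1.26), and the others were lower. The recombinase genes Rag1 and Rag2 were at most 0.03 and 0.04 TPM in any lung. The B lineage factor Pax5 had a log2 fold change of -2.87 (adjusted p = 0.0731) and the coactivator Pou2af1 of -2.74 (adjusted p = 0.122).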

How the data were processed

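Lungs of 12 mice were analyzed, 6 per genotype, grouped by the labels. TPM were calculated by the authors with RSEM and deposited per gene and library. The labels name fastp, HISAT, RSEM and build GRCm38.p5, and their versions are not given in the sources used here. TPM keep no read number, so depth per library is unknown and precision rests on the spread between lungs. Nothing states whether reads matching several segments were limited.

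limma 3.58.1 in R 4.3.3 (lmFit, eBayes with a trend) was run on log2(TPM + 1), comparing the genotypes without covariates. The same model was also run on simulated data with the means and SDs of these genes and equal spread in both genotypes. It recovered 89 of 100 planted log2 changes of 2 and 100 of 100 of 4, with 7 false calls. The simulation did not copy the unequal spread of the Ighv segments between genotypes. Exact permutation tests were two-sided (SciPy 1.17.1). V exons were aligned with edlib 1.3.9.post1. Sums, shares and ratios were not tested. The p-values set the genotype difference against the spread between these lungs, which limma pools over the genotypes and moderates across genes. The labels do not say whether lungs were taken in separate experiments, so differences between experiments could not be examined.

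Named segments were the highest of each lung and the 3 highest of each IL-10 B-WT lung, the 10 called with the largest change, the 5 highest in IL-10 B-KO, 5 tested and not called with the lowest p, the highest of each family and the highest pseudogene. Other names were chosen after values were seen. Values of some list members are not reported here. The members and the gene lists were chosen with earlier results of these data known. Alternatives were another pseudocount, filter, scaling or weighting, the replicate block, each lung left out and other ways to count segments.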

Additional observations from a re-analysis of the deposited data

Results flagged for a closer look

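A lung far from the other 5 of its genotype was found for 14 of 74 values examined by Dixon's criterion on the log2(TPM + 1) scale for segments. Chance gives about 1 in 20 for values that vary continuously, a rate that does not apply where a single lung was above 0 and the other 5 were at 0, since any such value meets the criterion. That was so for all but Ighv1-26, Ighv1-82 and Ighv5-4. Control replicate 2 stood apart in Ighv1-26 (1895.81 TPM), Ighv1-82 (1657.61 TPM) and the pseudogene Ighv3-2 (2.29 TPM, with 0 in the other 5). Control replicate 6 was the one lung of its genotype with Ighv1-23 (0.96 TPM).

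In knockout lungs, 10 of the 14 came from faint segments. Replicate 2 alone held Ighv3-2 (0.48 TPM), Ighv1-15 (2.84 TPM), Ighv1-18 (0.47 TPM) and Ighv1-81 (1.89 TPM), and replicate 6 alone held Ighv5-16 (4.97 TPM) and Ighv1-39 (1.02 TPM). Replicate 6 was also far above replicate 2, the one other lung above 0, in Ighv5-4 (1.27 TPM against 0.29 TPM). Replicate 3 alone held Ighv5-12 (0.54 TPM) and Ighv1-23 (0.55 TPM), and replicate 1 alone held Ighv8-6 (0.84 TPM).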

How the results depend on the processing

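None of the named segments that were tested reversed under any alternative run. The number of Ighv segments called, 10 as reported, was 20 with a pseudocount of 0.1, 0 with no filter (54 of 117 at a nominal limma p up to 0.05), 24 with array quality weights, 8 with the replicate number as a block (Ighv9-3 and Ighv1-75 lost), and 1 to 21 when 1 lung was left out. The share of all genes called, 0.495% as reported, was 0.607%, 0.019%, 2.1% and 0.297% in the first 4 of these and 0.125% to 3.99% in the last. Chosen after seeing the data, leaving out knockout replicates 2 and 6 gave 4 (0.33% of all genes), and no filter with a pseudocount of 0.1 gave 20 (0.212%). The median log2 fold change of the tested segments, -4.48, was -6.88 with a pseudocount of 0.1 and -1.70 with no filter, where more and fainter segments enter, and -5.04 to -3.71 without 1 lung. The replicate block left that median at -4.48, and the block was not taken as a pairing, since lungs of the same number had correlations of -0.292 to 0.0458 between their deviations from the genotype means and share only a number. The median ratio of Ighv to heavy constant TPM in control lungs was 0.945, and 3.35 without Igha, with V segments joined to Igha still counted. Scaling without immunoglobulin genes, quantile normalization and median centring gave 10, 9 and 8 calls, with Ighv9-3 lost under the latter pair and Ighv1-26 under centring (which moved the median log2 fold change of all genes from 0.099 to -0.0085), and a mean of at least 5 TPM gave 11. The median top shares, and the median effective number of control lungs, moved by less than 1 SD between lungs under every alternative run. The sums and the knockout effective number did so too, but there a fall of any size would have passed. Their SD exceeded the median, at 13884 against 2511 TPM for the control sum and 32.2 against 2.81 TPM for the knockout sum. For the knockout effective number it was 16.7 against 4.82. Without 1 lung the median sums were 1975 to 3046 TPM in control and 2.41 to 3.21 TPM in knockout lungs. The alternative of segments at or above 1 TPM could not be summarized for the knockout lungs, of which 4 have none. Depth is unknown, so a segment at 0 cannot be given a detection limit.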

Other observations

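Some segments were singled out after their values were seen. Ighv11-2, a member of a 2-segment family, was above 0 in the most knockout lungs, at 0.46, 0.24, 0.29 and 0.27 TPM in replicates 1, 2, 3 and 6, while it ranged from 0 to 297 TPM in control lungs. The 1 member with a higher mean in knockout lungs was Ighv8-11, at 0.45 TPM in knockout replicate 2, 0.43 TPM in control replicate 2 and 0 elsewhere. The pseudogene Ighv1-2 was above 0 in 4 control lungs (0.37 to 1.13 TPM), more than any other pseudogene, and in no knockout lung.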
